A study of Mus musculus with 6 samples.

Results

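The 35 genes described here are type I interferon-stimulated genes of mouse liver, chosen by name as textbook targets of the pathway, with earlier results of these data known, out of 55401 genes in the table. All 35 were present in the table. They comprise the IFIT proteins (*Ifit1*, *Ifit2*, *Ifit3*, *Ifit3b*), the ISG15 system (*Isg15*, *Usp18*, *Herc6*), the OAS proteins (*Oas1a*, *Oas1g*, *Oasl2*), 12 other antiviral effectors, 3 nucleic acid sensors, 4 transcription factors, the *Parp9*, *Dtx3l* and *Parp14* group, and 3 genes of class I antigen processing. Poly(A) RNA was sequenced from liver of C57BL/6 mice in 3 groups of 2 libraries. The control group (replicates 1 and 3) carries no treatment in its labels, and no time of collection is given for it. The APAP group (replicates 1 and 3) was collected 6 h after an intraperitoneal injection of acetaminophen (APAP, or paracetamol) at 400 mg/kg, a model of drug-induced liver injury. The COS+APAP group (replicates 2 and 3) had costunolide (COS, a plant sesquiterpene lactone) at 20 mg/kg, given 12 h and again 40 min ahead of that APAP injection. Values given "with COS" are those of the COS+APAP group, and pairs of values follow the order of the replicate numbers. There was no group with COS alone, and the age and sex of the mice are not in the labels.

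Groups follow the titles, source names and treatment fields. The treatment protocol assigns COS to samples 5 and 6, and counted in accession order these are the libraries labelled APAP. If that text holds, the names of the APAP and COS+APAP groups are swapped throughout, and each difference between them has the opposite sign. The titles also carry a prefix that is 2 in the COS+APAP libraries and 1 in the other libraries, so a batch tied to that prefix cannot be told apart from COS. Estimated counts totalled 71115112 to 76669799 per library. The hepatocyte markers, *Alb*, *Apoa1* and *Ttr* among them, summed to 47592 FPKM or more in every library (FPKM are fragments per kilobase of transcript, scaled to each library's total), so defining markers of liver were present. With 2 libraries against 2, an exact permutation test of a single gene cannot give a p below 0.33, so calls rest on edgeR's quasi-likelihood test, which shares its estimate of spread across genes.

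Type I interferons are secreted when cells sense foreign or misplaced nucleic acid. They bind the receptor pair IFNAR1 and IFNAR2, whose kinases TYK2 and JAK1 phosphorylate STAT proteins. Among these, STAT2 joins IRF9 in the complex ISGF3, which binds the interferon-stimulated response element in the promoters of its target genes. Many of these genes are kept at a low level in resting tissue by constant weak signalling, and in liver both hepatocytes and resident macrophages can express them.

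The core of the response element, taken here as a GAAA block, any 2 bases and another GAAA block, was searched in the 250 bases before the start of each gene (RefSeq, GRCm38.p6, both strands, overlapping matches counted). A promoter entry was found for 29 of the 35 genes. *Dhx58*, *Parp14*, *Parp9*, *Rtp4*, *Usp18* and *Zbp1* had no entry. The core was present in 10 of the 29 (34.5%), against 936 of 27025 gene symbols in the whole table (3.46%). The STAT family motif TTCNNNGAA, which reads the same on both strands, was present in 6 of the 29 (20.7%) and in 8.13% of all symbols. A match describes the letters alone and not a site in use. The stretches around the matches are shown for 8 of the 10 genes because they carry the shared motif beside which the measured levels can be read. Each is 5′ to 3′ on the strand of the gene, with the motif in capitals. TTTC blocks are the same core read from the opposite strand.
Isg15 (chr4:156200855-156200916, minus strand): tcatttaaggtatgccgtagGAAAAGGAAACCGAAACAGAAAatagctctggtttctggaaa
Ifit1 (chr19:34640765-34640833, plus strand): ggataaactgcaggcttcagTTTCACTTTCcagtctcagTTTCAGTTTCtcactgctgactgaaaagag
Ifit3 (chr19:34583353-34583436, plus strand): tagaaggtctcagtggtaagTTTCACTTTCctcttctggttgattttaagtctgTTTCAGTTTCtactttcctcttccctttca
Ifit3b (chr19:34607749-34607832, plus strand): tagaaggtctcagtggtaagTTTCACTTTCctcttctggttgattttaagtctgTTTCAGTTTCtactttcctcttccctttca
Oas1a (chr5:120907526-120907565, minus strand): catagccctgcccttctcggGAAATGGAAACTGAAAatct
Bst2 (chr8:71537567-71537622, minus strand): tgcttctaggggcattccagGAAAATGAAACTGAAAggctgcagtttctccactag
Rsad2 (chr12:26456543-26456592, minus strand): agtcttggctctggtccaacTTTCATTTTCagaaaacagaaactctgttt
Stat2 (chr10:128270256-128270305, plus strand): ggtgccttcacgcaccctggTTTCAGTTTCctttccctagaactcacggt

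*Isg15* holds 3 overlapping copies of the core in an uninterrupted run, while *Ifit1*, *Ifit3* and *Ifit3b* each hold 2 separate copies. The windows of *Ifit3* and *Ifit3b* are identical over all 84 bases shown. *Rsad2* and *Stat2* each hold 1 copy.

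APAP was compared with control to ask how the interferon-stimulated genes stand during the injury. Most of them were lower after APAP. Of the 29 members that passed the filter on low values (an FPKM that averages at least 1 over all libraries), 21 fell at an adjusted p below 0.05, where 22.1% of all 10051 tested genes fell. None rose (0 members also at an unadjusted p below 0.05), where 23.3% of all tested genes rose. DESeq2 called 23 members lower and 0 higher, where it called 26.9% and 27.5% of all genes. Their median log2 fold change was −1.43, against 0.0 over all tested genes, and single members lay between −3.07 (*Isg15*) and 1.08 (*Rsad2*). The filter left out *Ifit2*, *Herc6*, *Oas1g*, *Oasl2*, *Ifi44* and *Trim30a*. Of the 29 tested members 2 (*Cmpk2* and *Xaf1*) reached a mean of 1 FPKM in control alone. Both are among the 21, so they entered the test through the group where they are high. At a mean FPKM of at least 0.3 all 35 were tested and 24 fell and 0 rose (19.1% and 20.1% of 13802 genes), with *Herc6*, *Oas1g* and *Ifi44* added to the 21. In FPKM, both APAP libraries were below both control libraries for 30 of the 35, where this held for 43.3% of the 13802 genes.

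The most expressed members were *Bst2* and *Isg15*. ISG15 is a ubiquitin-like protein that is attached to other proteins, and it also acts as a secreted factor. *Isg15* (ENSMUSG00000035692) stood at 87.0 and 129 FPKM in control replicates 1 and 3, at 12.7 and 10.6 in replicates 1 and 3 of the APAP group and at 10.5 and 9.95 in replicates 2 and 3 of the COS+APAP group. Both treated groups were thus far below control, and their ranges lay next to each other. The group means were 108 ± 29.7 FPKM in control, 11.7 ± 1.48 after APAP and 10.2 ± 0.375 with COS (SD, n = 2). *Isg15* fell by 3.07 ± 0.23 on the log2 scale (± SE throughout) after APAP (adjusted p = 0.00127) and was lower than control by 3.24 ± 0.23 in COS+APAP (adjusted p = 0.00299). Between COS+APAP and APAP the difference was −0.17 ± 0.22 (adjusted p = 0.596). *Usp18*, which removes ISG15 from proteins and blocks the receptor, had 8.12 and 12.6 FPKM in control, 2.84 and 2.56 after APAP and 3.15 and 4.51 with COS. It fell by 1.79 ± 0.28 after APAP (adjusted p = 0.00573), and its COS+APAP libraries lay between the other groups. *Herc6*, the ligase that attaches ISG15 in mouse, was lower too, with 1.16 and 1.33 FPKM in control against 0.58 and 0.38 in APAP (log2 fold change −1.21 ± 0.27, adjusted p = 0.0172 at the lower filter).

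**Figure D1:**
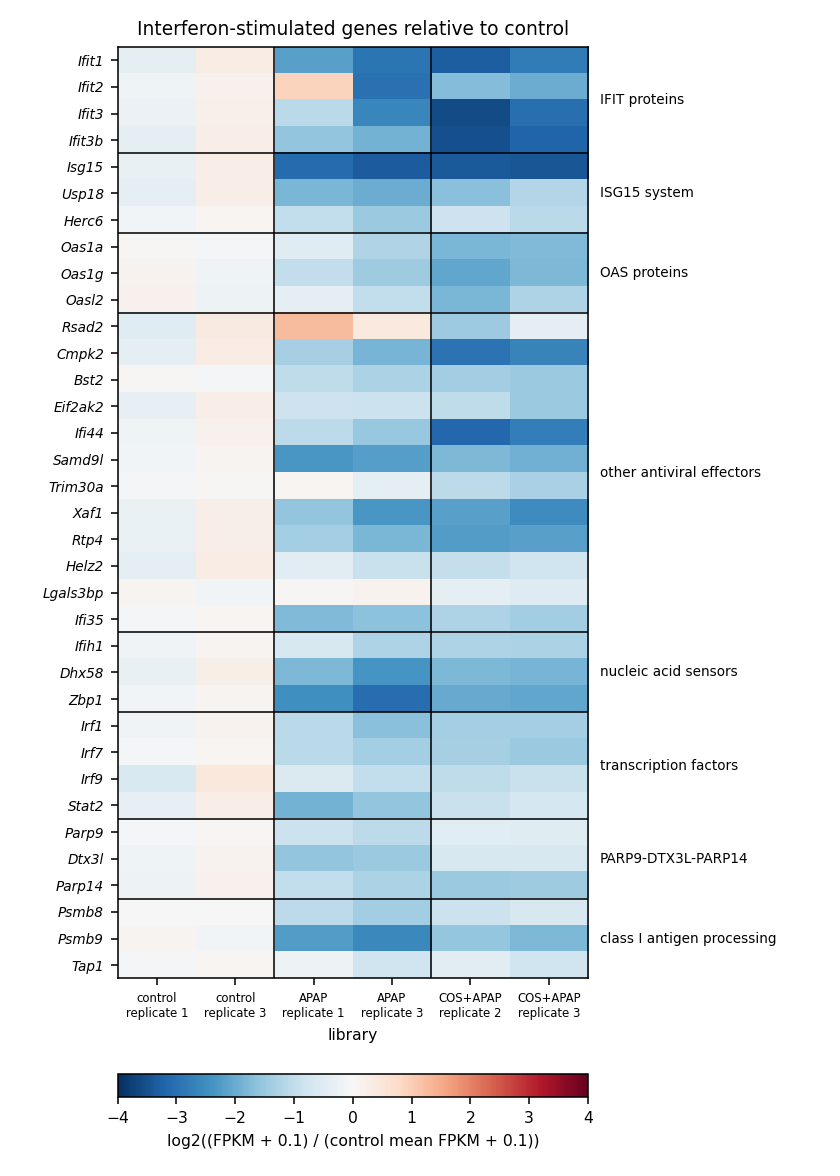
Level of each of the 35 genes (rows, grouped by role) in each of the 6 libraries (columns), as log2 of FPKM + 0.1 over the mean control FPKM + 0.1, with blue for below and red for above control. Nearly all rows are blue in the 4 APAP and COS+APAP columns, *Rsad2* is red in both APAP columns, and *Ifit3* and *Ifit3b* are darkest in COS+APAP.

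The IFIT proteins bind viral RNA and block its translation. *Ifit3* was the most expressed of the family, with 22.97 and 31.40 FPKM in control, 12.8 and 4.41 after APAP and 2.16 and 3.28 with COS. The 3 groups did not overlap, but the APAP libraries stood far apart. Its difference between APAP and control was −1.51 ± 0.53 (adjusted p = 0.0656). It was −2.53 (adjusted p = 0.0161) when APAP replicate 1 was left out and −0.92 (adjusted p = 0.104) when APAP replicate 3 was, and it passed in 1 of the 6 fits that each left out 1 library. *Ifit1* had 9.29 and 15.2 FPKM in control, 2.62 and 1.52 after APAP and 1.17 and 1.69 with COS. It fell by 2.42 ± 0.40 after APAP (adjusted p = 0.00652), with no overlap with control, while APAP and COS+APAP overlapped. *Ifit3b*, a close copy of *Ifit3*, had 4.98 and 7.75 FPKM in control, 2.08 and 1.64 after APAP and 0.47 and 0.60 with COS, a stepwise order without overlap. It fell by 1.63 ± 0.30 after APAP (adjusted p = 0.00866). *Ifit2* was low and disagreed within the APAP group, at 1.65 and 0.02 FPKM (516 and 8 estimated counts) against 0.73 and 0.95 in control. Its log2 fold change of 0.18 ± 1.39 could not place it. *Ifit3* and *Ifit3b* share 61.8% of the 31-base words of the *Ifit3* transcript, so reads may be divided between them, which leaves both values uncertain.

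OAS proteins make oligoadenylates that activate RNase L, an enzyme that degrades viral RNA. All 3 members were low. *Oas1a* had 2.58 and 2.46 FPKM in control, 1.77 and 1.05 after APAP and 0.63 and 0.67 with COS. *Oas1g* had 1.63 and 1.28, then 0.68 and 0.48, then 0.27 and 0.35, and *Oasl2* 1.44 and 1.10, then 0.95 and 0.59, then 0.29 and 0.48. Each thus stepped down from control to APAP to COS+APAP with no overlap between groups. After APAP only the fall of *Oas1g* passed the test (log2 fold change −1.16 ± 0.34, adjusted p = 0.042 at the lower filter), with −0.69 ± 0.32 for *Oas1a* (adjusted p = 0.129). *Oas1a* and *Oas1g* share 68.0% of the 31-base words of *Oas1a*, so their values may also be mixed.

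Among the 12 other effectors, 10 were tested and 6 of them fell after APAP. *Bst2*, which encodes tetherin and holds budding virus at the cell surface, had 192 and 181 FPKM in control, 91.6 and 78.1 after APAP and 71.5 and 67.3 with COS. Its libraries were close within each group, and it fell by 1.00 ± 0.13 (adjusted p = 0.00362). *Samd9l*, an inhibitor of translation, fell by more, from 4.28 and 5.02 FPKM in control to 0.84 and 0.94 in APAP (log2 fold change −2.24 ± 0.16, adjusted p = 0.00113), and had 1.26 and 1.15 in COS+APAP. *Ifi35*, a partner of the interferon-induced protein NMI, fell from 32.0 and 35.6 FPKM to 9.91 and 10.7 (−1.58 ± 0.12, adjusted p = 0.00134). *Xaf1*, which binds the apoptosis inhibitor XIAP, *Rtp4*, a receptor transport protein, and *Cmpk2*, a mitochondrial nucleotide kinase, fell by 1.86, 1.49 and 1.54. *Eif2ak2* (PKR, the kinase that halts translation on double-stranded RNA) and *Helz2* (a helicase) had log2 fold changes of −0.74 and −0.51 that did not pass (adjusted p = 0.0713 and 0.18). *Ifi44*, below the main filter, had 0.91 and 1.19 FPKM in control and 0.46 and 0.30 in APAP.

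A few members went against the rest. *Rsad2* encodes viperin, which makes a chain-terminating nucleotide, and had 1.32 and 2.47 FPKM in control against 4.70 and 2.53 in APAP. It was the 1 member of 35 with both APAP libraries above both control libraries, where this held for 30.3% of the 13802 genes. The nearest values were 2.47 and 2.53, and its difference of 1.08 ± 0.55 did not pass the test (adjusted p = 0.161). Its neighbour *Cmpk2*, 12751 bases away on chromosome 12 on the opposite strand, had 1.88 and 3.01 FPKM in control, 0.92 and 0.60 after APAP and 0.23 and 0.30 with COS. *Lgals3bp*, a secreted scavenger-receptor protein, overlapped between control (13.4 and 11.7 FPKM) and APAP (13.1 and 13.8). *Trim30a*, a ubiquitin ligase of the TRIM family, overlapped as well, at 1.21 and 1.31 in control and 1.34 and 0.97 in APAP.

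All 3 sensors fell after APAP. *Zbp1*, a sensor of Z-form nucleic acid upstream of necroptosis, had 7.24 and 8.50 FPKM in control, 1.34 and 0.87 after APAP and 1.88 and 1.79 with COS, and fell by 2.68 ± 0.26 after APAP (adjusted p = 0.00177). *Dhx58* (LGP2, a regulator of RIG-I-like receptors) had 6.78 and 9.92, then 2.32 and 1.55, then 2.35 and 2.25, and fell by 1.96 ± 0.28 (adjusted p = 0.00449). *Ifih1* (MDA5, a receptor for long double-stranded RNA) had 3.95 and 4.73, then 2.74 and 1.79, then 1.80 and 1.74. In each of the 3, both APAP libraries were below both control libraries. The fall of *Ifih1* by 0.79 ± 0.24 (adjusted p = 0.0406) was the smallest of the 21 and was lost in 5 of the 6 fits that each left out 1 library, including each that left out a control library.

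Of the 4 transcription factors, 3 fell after APAP. *Irf7*, which amplifies interferon production, had 11.6 and 12.8 FPKM in control, 5.77 and 4.71 after APAP and 4.80 and 4.30 with COS, and it fell by 1.07 ± 0.16 after APAP (adjusted p = 0.00462). *Stat2*, the STAT particular to ISGF3, had 9.50 and 14.2, then 3.12 and 3.91, then 6.31 and 7.22, and fell by 1.62 ± 0.23 (adjusted p = 0.00413). *Stat2* thus was lowest in APAP, with COS+APAP in between and no overlap of the 3 groups. *Irf1*, a factor also induced by interferon gamma, had 8.58 and 10.6 FPKM in control and 4.47 and 2.94 in APAP (−1.23 ± 0.24, adjusted p = 0.0109). *Irf9*, the DNA-binding part of ISGF3, had 4.64 and 9.52 in control and 4.75 and 3.50 in APAP, which overlap, and its −0.63 did not pass (adjusted p = 0.196).

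**Figure D2:**
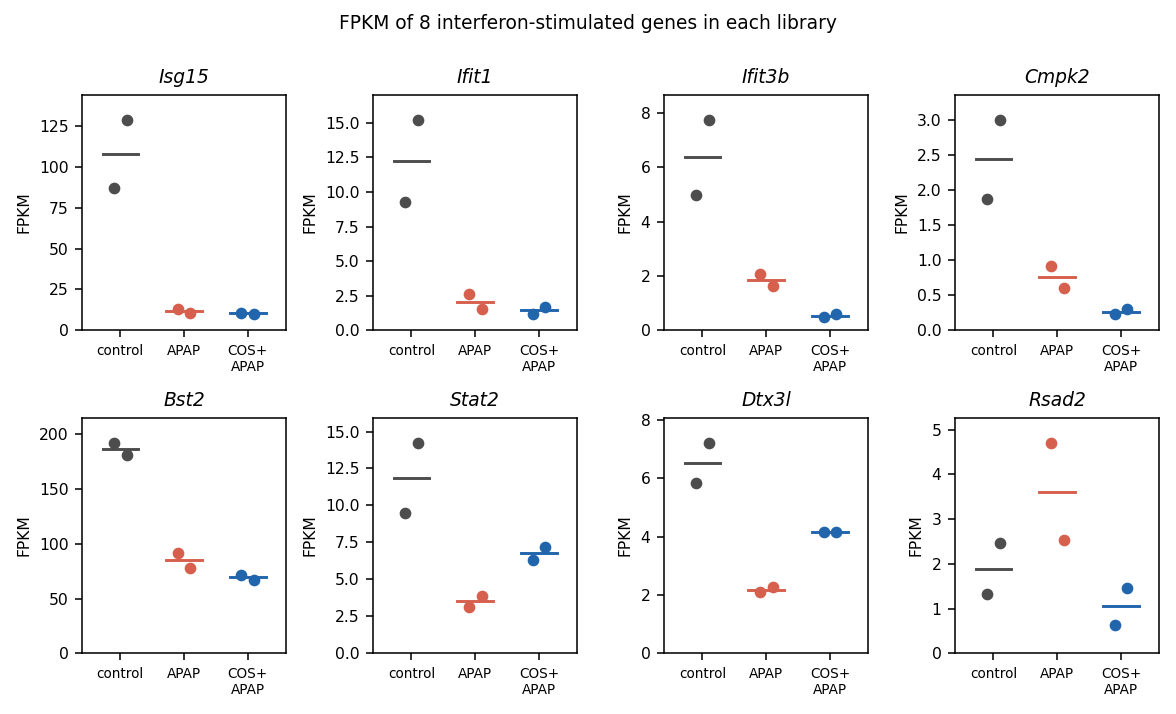
FPKM (vertical axis, linear from 0) of 8 members in each library (points), with the mean of each group of 2 libraries as a line. *Isg15*, *Ifit1*, *Ifit3b*, *Cmpk2* and *Bst2* have their highest mean in control and their lowest in COS+APAP, *Stat2* and *Dtx3l* are lowest in APAP, and *Rsad2* is highest in APAP.

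*Parp9*, *Dtx3l* and *Parp14* lie within one stretch of chromosome 16. PARP9 and the ubiquitin ligase DTX3L form a complex that acts in interferon signalling, and PARP14 is an ADP-ribosyltransferase. *Parp9* had 9.99 and 10.8 FPKM in control, 5.63 and 5.00 after APAP and 7.61 and 7.37 with COS. *Dtx3l* had 5.82 and 7.20, then 2.11 and 2.26, then 4.16 and 4.15. Both were lowest in APAP, with COS+APAP between the other groups. They fell by 0.83 ± 0.12 (adjusted p = 0.00512) and 1.43 ± 0.14 (adjusted p = 0.0018) after APAP. *Parp14* had 2.80 and 3.71, then 1.58 and 1.29, then 1.10 and 1.15, and fell by 1.05 ± 0.19 (adjusted p = 0.00905), with COS+APAP the lowest group. *Dtx3l* and *Parp9* overlap by 682 bases on opposite strands, and the strand setting of the counting is unknown here, so reads of that stretch cannot be told apart.

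Class I antigen processing was represented by the immunoproteasome subunits *Psmb8* and *Psmb9* and the peptide transporter *Tap1*, which adjoin on chromosome 17. *Psmb9* had 5.75 and 4.99 FPKM in control, 1.05 and 0.82 after APAP and 1.77 and 1.46 with COS, and fell by 2.38 ± 0.22 after APAP (adjusted p = 0.00168). *Psmb8* had 5.82 and 6.01, then 2.83 and 2.21, then 3.24 and 3.73, and fell by 1.08 ± 0.18 (adjusted p = 0.00725). The 3 groups did not overlap in either gene. *Tap1* had 2.48 and 2.76 FPKM in control, 2.25 and 1.47 after APAP and 1.87 and 1.48 with COS. Its difference after APAP, −0.34, did not pass (adjusted p = 0.315). *Psmb9* and *Tap1* overlap by 212 bases on opposite strands.

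Of the 21 calls, 17 remained when control replicate 3 was left out, with *Cmpk2*, *Ifih1*, *Irf1* and *Xaf1* lost, and 19 remained without APAP replicate 3, with *Cmpk2* and *Ifih1* lost. Without APAP replicate 3 the median log2 fold change of the members was −0.93. The members differed together within groups. Control replicate 3 was above control replicate 1 for 29 of the 35 (82.9%, median log2 FPKM ratio 0.3), where this held for 50.5% of all tested genes. APAP replicate 3 was above APAP replicate 1 for 5 of the 35 (14.3%, median −0.43), against 57.5% of all tested genes. The COS+APAP libraries were evenly split, with replicate 3 higher for 17 of the 35. Even so the summed FPKM of the 35 did not overlap between control and APAP, at 492 and 582 in control, 217 and 175 after APAP and 172 and 169 with COS. Without *Bst2* and *Isg15* the sums were 213 and 271, 112 and 86.2, and 90.1 and 92.1.

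**Figure D3:**
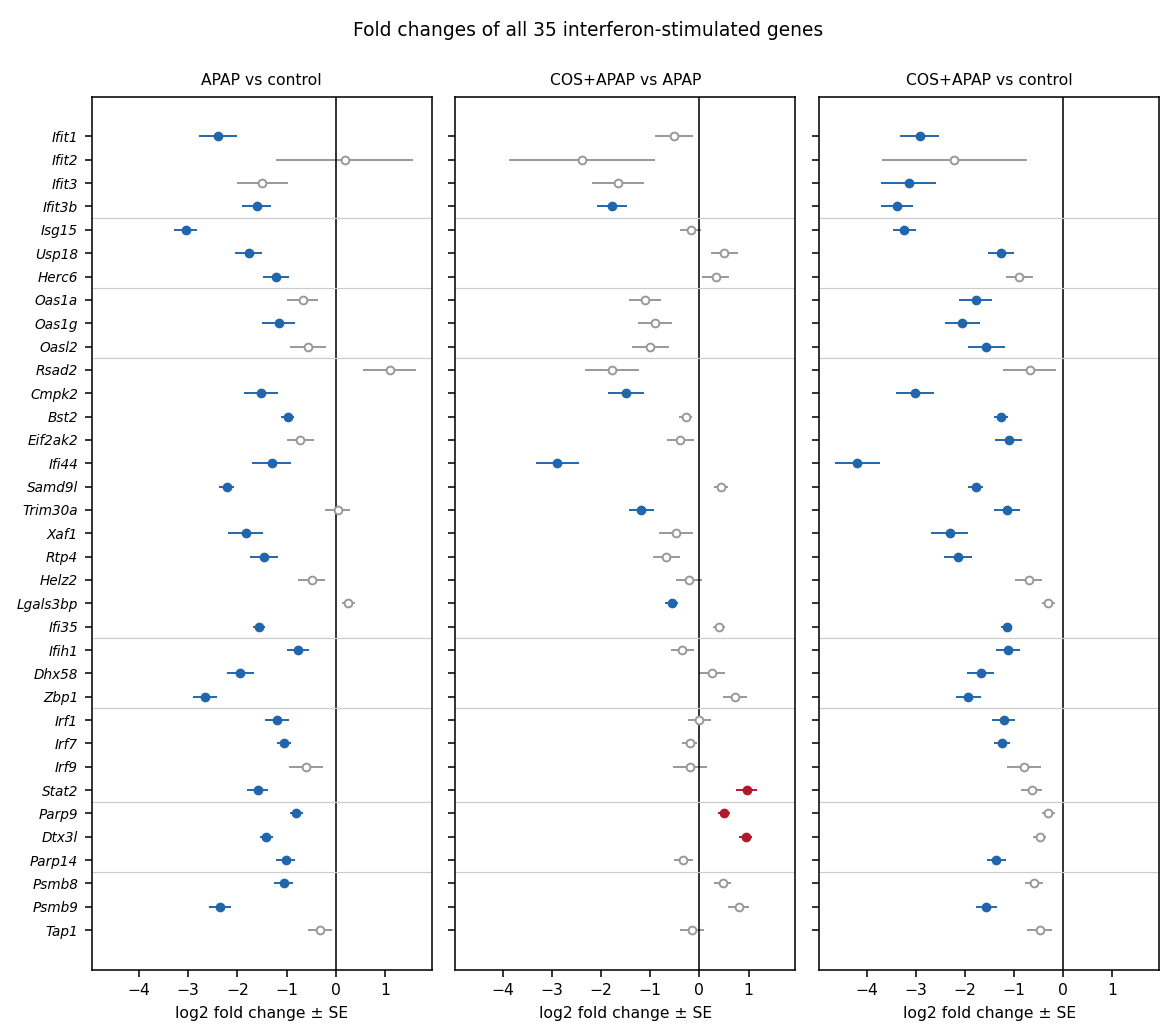
Log2 fold changes with their standard errors for the 35 members in the 3 comparisons, from the fit with a mean FPKM of at least 0.3, which tests all 35. Filled points passed an adjusted p of 0.05 (blue lower, red higher) and open points did not. In both comparisons with control 24 points are filled blue, and in COS+APAP against APAP 5 are blue and 3 red.

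COS+APAP was compared with APAP to ask whether costunolide pretreatment altered these levels. The 35 genes did not move as a group. Of the 29 tested, 4 rose (*Stat2*, *Parp9*, *Dtx3l* and *Psmb9*), where 11.2% of all tested genes rose. Another 3 fell (*Ifit3b*, *Cmpk2* and *Lgals3bp*), where 11.1% of all tested genes fell. Of these 3, *Cmpk2* passed the filter through control alone, with means of 0.76 FPKM after APAP and 0.265 with COS. DESeq2 called 7 higher and 6 lower, where it called 17.4% and 18.0% of all genes. The median log2 difference was −0.19, against 0.01 over all tested genes. In FPKM, 9 of the 35 had both COS+APAP libraries above both APAP libraries and 15 had both below, where these patterns held for 32.7% and 33.5% of the 13802 genes. This comparison and APAP against control share the APAP libraries, so their values are set side by side and are not independent.

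The 4 that rose encode the STAT of ISGF3, the partners PARP9 and DTX3L and an immunoproteasome subunit. *Stat2* was higher in COS+APAP by 0.97 ± 0.22 (adjusted p = 0.0333), *Dtx3l* by 0.95 ± 0.14 (adjusted p = 0.0121), *Psmb9* by 0.81 ± 0.21 (adjusted p = 0.0465) and *Parp9* by 0.51 ± 0.12 (adjusted p = 0.0385). *Dtx3l* stood at 4.16 ± 0.00707 FPKM in COS+APAP, against 2.19 ± 0.106 in APAP and 6.51 ± 0.976 in control (SD, n = 2). *Zbp1* (0.74), *Usp18* (0.52), *Psmb8* (0.48), *Samd9l* (0.45) and *Ifi35* (0.41) also had both COS+APAP libraries above both APAP libraries, without passing the test (adjusted p from 0.0624 for *Ifi35* to 0.223 for *Usp18*).

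The 3 that fell encode an IFIT protein, a mitochondrial nucleotide kinase and a secreted scavenger-receptor protein. *Ifit3b* was lower in COS+APAP by 1.77 ± 0.30 (adjusted p = 0.0172) and *Cmpk2* by 1.48 ± 0.36 (adjusted p = 0.0399). *Lgals3bp*, which overlapped between control and APAP, was lower by 0.55 ± 0.13 (adjusted p = 0.0335), with 9.46 and 8.66 FPKM against 13.1 and 13.8. At the lower filter *Ifi44* (0.03 and 0.07 FPKM against 0.46 and 0.30) and *Trim30a* (0.56 and 0.45 against 1.34 and 0.97) were lower by 2.89 ± 0.44 and 1.18 ± 0.26 (adjusted p = 0.0144 and 0.0313). There 3 members rose and 5 fell, where 9.69% and 9.82% of all 13802 genes did. *Rsad2*, at 0.63 and 1.47 FPKM against 4.70 and 2.53, had a difference of −1.77 ± 0.56 and *Ifit3* one of −1.65 ± 0.54, neither past the threshold (adjusted p = 0.0752 and 0.0822).

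None of the 7 calls passed in every fit that left out 1 library. Calls over all tested genes also became fewer in each of those fits. Each of the 7 kept its sign there. The differences were 0.84 to 1.11 for *Stat2*, 0.92 to 0.97 for *Dtx3l*, 0.62 to 1.03 for *Psmb9* and 0.40 to 0.63 for *Parp9*. For those that fell they were −1.96 to −1.55 (*Ifit3b*), −1.78 to −1.10 (*Cmpk2*) and −0.61 to −0.50 (*Lgals3bp*). Under upper-quartile scaling 5 members were higher and 2 lower, in place of 4 and 3.

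COS+APAP was also compared with control, to ask whether the pretreated livers were at the untreated level. Of the 29 tested members 20 were lower, where 10.3% of all tested genes were lower, and none was higher (0 also at an unadjusted p below 0.05), where 10.7% were higher. The 20 include *Cmpk2* and *Xaf1*, which passed the filter through control alone. DESeq2 called 23 lower and 0 higher (17.1% and 16.9% of all genes), and at the lower filter 24 of 35 were lower and 0 higher (7.75% and 8.09%). The median log2 difference was −1.27, against 0.02 over all tested genes. In FPKM both COS+APAP libraries were below both control libraries for 34 of the 35, where this held for 40.9% of the 13802 genes, and *Rsad2* was the exception. The opposite order held for 0 members and for 23.4% of those genes. Among the 29 the lowest values belonged to *Ifit3b* (−3.40 ± 0.32, adjusted p = 0.00441), *Isg15*, *Ifit3* (−3.16 ± 0.57, adjusted p = 0.0187), *Cmpk2* (−3.02 ± 0.38, adjusted p = 0.00832) and *Ifit1* (−2.93 ± 0.41, adjusted p = 0.00989). *Ifi44*, tested at the lower filter alone, was lower still (−4.19 ± 0.46, adjusted p = 0.00646). *Stat2*, *Parp9*, *Dtx3l* and *Psmb8* fell after APAP alone but did not pass here, at −0.65, −0.31, −0.49 and −0.60 (adjusted p = 0.0924, 0.13, 0.0567 and 0.0697). Their COS+APAP libraries were still below both control libraries. DESeq2 did call *Dtx3l*, *Psmb8* and *Stat2* lower, and limma called *Dtx3l*, *Parp9* and *Psmb8* lower. *Psmb9* was lower by 1.57 ± 0.21 (adjusted p = 0.00947). Fewer of the members passed when any single library was left out, and fewer of all tested genes did too. The median of the members stayed between −1.41 and −1.17 in those fits. Both comparisons with control share the control libraries.

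The inducing cytokines were hardly measured. Of 10 interferon genes in the table, 8 are listed at 0 in every library, and the summed FPKM of all 10 was at most 0.07 in any library. Genes of the receptors and the JAK-STAT chain did not follow 1 direction: of 9 tested, 4 rose after APAP (*Stat3*, *Jak2*, *Jak1*, *Ifngr2*) and 2 fell (*Il10rb*, *Tyk2*), where 23.3% and 22.1% of all tested genes did. *Ifnar1* had 3.64 and 3.49 FPKM in control, 3.31 and 3.36 after APAP and 3.27 and 3.88 with COS. *Ifnar2* had 17.7 and 19.1, then 15.8 and 18.4, then 16.9 and 15.0. Their log2 differences after APAP were 0.04 ± 0.13 and 0.03 ± 0.12 (adjusted p = 0.824 and 0.851), and both turned negative under upper-quartile scaling and in limma on log2 FPKM. *Ifngr1*, a chain of the interferon gamma receptor, had 2.24 and 1.31 FPKM in control, 3.23 and 9.26 after APAP and 3.51 and 1.25 with COS, and its difference after APAP, 1.93 ± 0.69, did not pass (adjusted p = 0.0671). *Ifngr2*, its partner, rose by 0.59 ± 0.18 (adjusted p = 0.044), a call lost in 9 of 17 alternative fits.

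*Stat3*, the STAT of interleukin 6 signalling, rose, with 5.38 and 4.48 FPKM in control, 13.3 and 13.5 after APAP and 8.67 and 10.6 with COS (1.58 ± 0.16 after APAP, adjusted p = 0.002). *Jak1* had 9.16 and 9.07, then 15.4 and 15.0, then 8.32 and 10.9, and *Jak2* had 1.32 and 1.59, then 3.12 and 2.65, then 1.18 and 0.95. Both kinases were highest in APAP with no overlap. They rose by 0.88 and 1.13 after APAP (adjusted p = 0.00858 and 0.00819) and were lower in COS+APAP than in APAP by 0.64 and 1.43 (adjusted p = 0.0398 and 0.0113). The *Jak1* call against APAP was lost in 8 of 16 alternative fits and that of *Jak2* in 2. *Tyk2* had 3.46 and 3.23 FPKM in control and 1.83 and 2.14 in APAP, and fell by 0.62 ± 0.13 (adjusted p = 0.0126). That fall did not pass once replicate 1 of either group was left out, nor with the replicate block. *Il10rb*, shared by receptors of interleukin 10 and lambda interferons, fell by 1.04 ± 0.18 (adjusted p = 0.00759).

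**Figure D4:**
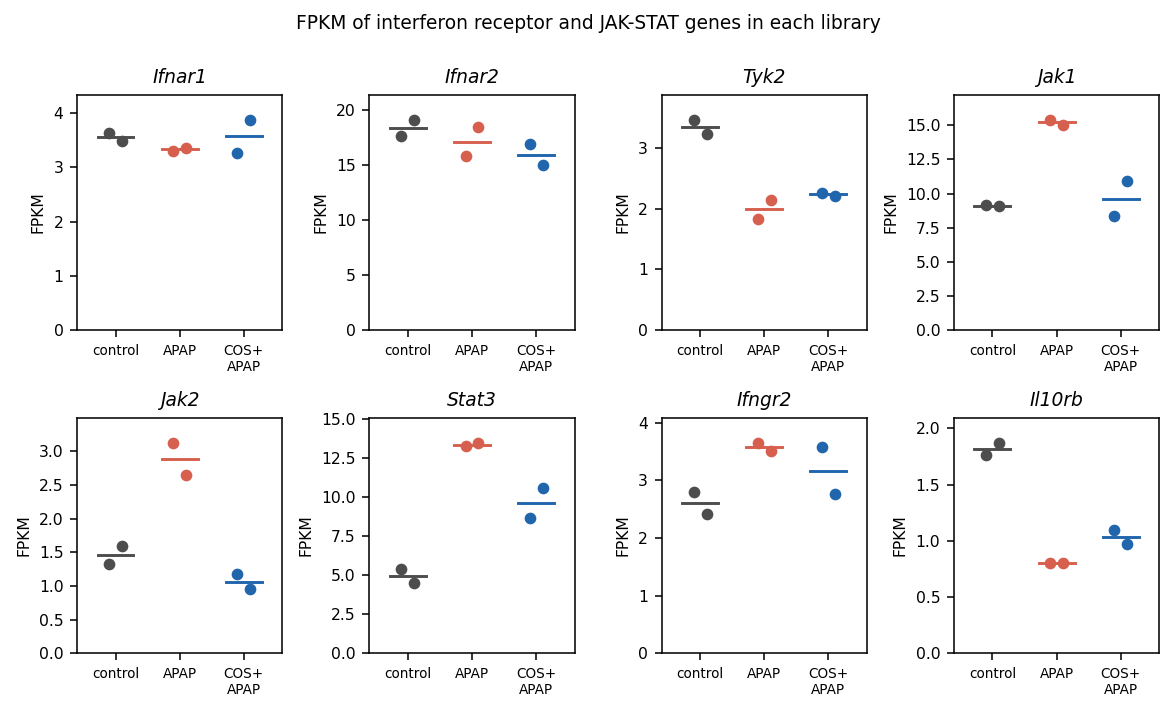
FPKM (vertical axis, linear from 0) of 8 genes of the interferon receptors and the JAK-STAT chain in each library (points), with group means as lines. *Ifnar1* lies between 3.27 and 3.88 FPKM and *Ifnar2* between 15.0 and 19.1 in the 6 libraries, *Tyk2* and *Il10rb* are highest in control, and *Jak1*, *Jak2* and *Stat3* are highest in APAP.

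Upstream of interferon, 9 of 17 genes of nucleic acid sensing were tested, of which 2 rose and 4 fell after APAP (23.3% and 22.1% of all tested genes). *Ddx58* (RIG-I), itself interferon-stimulated, fell by 2.26 ± 0.21 (adjusted p = 0.00171), from 5.18 and 6.96 FPKM to 1.26 and 1.02. *Tbk1*, the kinase that activates IRF3, rose by 1.41 ± 0.40 (adjusted p = 0.0336), although control replicate 1 (3.58 FPKM) and control replicate 3 (1.87) stood apart and the call was lost in 5 of 17 alternative fits. Against APAP, *Irf5* was lower in COS+APAP by 2.41 ± 0.29 (0.84 and 0.66 FPKM against 3.05 and 5.10, adjusted p = 0.0082) and *Irf2* was higher by 0.95 ± 0.16 (4.40 and 4.18 against 2.02 and 2.47, adjusted p = 0.0171). Fewer of the 4 falls after APAP passed without APAP replicate 1, where fewer of all tested genes passed too. Of 14 tested negative regulators, 4 rose and 4 fell after APAP, where 23.3% and 22.1% of all tested genes did. Fewer of these falls passed when any 1 of the 6 libraries was left out, and fewer of all tested genes passed then too. *Socs3*, the feedback inhibitor induced through STAT3, rose by 2.44 ± 0.40 (4.57 and 4.84 to 26.7 and 19.6 FPKM, adjusted p = 0.0063) and was lower in COS+APAP by 1.60 ± 0.39 (adjusted p = 0.0375). *Ptpn11*, the phosphatase SHP2, had 0.26 and 4.22 FPKM in control, which stand far apart, and 10.95 and 10.63 in APAP, and its 2.41 ± 1.10 after APAP did not pass (adjusted p = 0.126). *Cish*, another feedback inhibitor, was lower in COS+APAP than in APAP by 2.27 ± 0.51 (adjusted p = 0.0318).

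A list of 61 other interferon-stimulated genes, which shares no gene with the 35, had 42 tested. After APAP 21 fell and 7 rose, where 22.1% and 23.3% of all tested genes did, with a median of −0.69 against 0.0. *Apol9b* fell by 3.10 ± 0.47 (38.5 and 105 FPKM to 8.11 and 7.00, adjusted p = 0.00526) and *Oas1b* by 2.67 ± 0.43 (adjusted p = 0.0061). The enzymes that load ISG15 fell as *Isg15* did: *Uba7*, its activating enzyme, by 1.78 ± 0.13 (3.29 in both control libraries to 0.82 and 0.91 FPKM, adjusted p = 0.00123) and *Ube2l6*, its conjugating enzyme, by 1.66 ± 0.17 (adjusted p = 0.00194). The HIN-200 genes *Ifi204* and *Ifi207* rose, by 1.77 ± 0.27 and 1.78 ± 0.25 (adjusted p = 0.00507 and 0.00407). Against APAP, 3 of the 42 rose (*Uba7*, *Ifitm2*, *Ifitm3*) and 8 fell in COS+APAP (11.2% and 11.1% of all tested genes), with a median of −0.04. Fewer of the 8 falls passed when either APAP or either COS+APAP library was left out. The 3 rises did not pass without APAP replicate 1 or COS+APAP replicate 3. Calls over all tested genes became fewer in those fits as well. The largest falls there were those of *Ifi204* (−1.65 ± 0.27, adjusted p = 0.0151) and *Slfn5* (−1.48 ± 0.24, adjusted p = 0.015). *Uba7* and *Ube2l6* were named after their values were seen, as were *Ifi207*, *Ifitm2* and *Ifitm3*.

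The wider class I pathway had 15 tested genes, of which 6 fell and 0 rose after APAP with edgeR, where 22.1% and 23.3% of all tested genes did. Higher at an unadjusted p below 0.05 was 1 gene, and DESeq2 called 1 higher and 7 lower. The largest falls were those of the endoplasmic reticulum chaperones *Calr*, by 1.58 ± 0.13 (adjusted p = 0.00144), and *Pdia3*, by 1.53 ± 0.12 (adjusted p = 0.00143), and these rose in COS+APAP by 1.35 ± 0.13 and 1.05 ± 0.12 (adjusted p = 0.00589 and 0.00787). Both serve glycoprotein folding in general and are not specific to antigen presentation. Some genes outside the 35 are named for a change between COS+APAP and APAP. Cell type markers aside, *Irf5*, *Calr*, *Pdia3* and the class II gene *Cd74* among them passed in all 16 alternative fits. The others each lost the call in 2 or more. The heavy chain gene *H2-D1* had 257 and 250 FPKM in control and 285 and 287 in APAP, a difference of 0.31 ± 0.12 that did not pass (adjusted p = 0.0779).

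In bulk liver, fewer cells of a type and less RNA per cell cannot be told apart, so marker lists are set beside these results. Their counts after APAP can be read against the 23.3% of all tested genes that rose and the 22.1% that fell, and those between COS+APAP and APAP against 11.2% and 11.1%. Of 12 Kupffer cell markers, 4 rose and 8 did not pass after APAP, with summed FPKM of 123 to 144 in control, 139 to 196 after APAP and 145 to 149 with COS. Against APAP, 1 of them was higher with COS and 1 lower. Dendritic cell markers summed to 1.82 to 2.27 FPKM in control, 0.91 to 1.04 after APAP and 1.00 to 1.14 with COS. Most of each sum was *Clec9a*, with 1.34 and 1.86 FPKM in control, 0.52 and 0.76 after APAP and 1.04 and 0.90 with COS. The other 6 were below 1 FPKM in every library, so the sums mainly repeat this gene. The 1 of 7 that was tested, *Clec9a*, fell by 1.18 ± 0.28 after APAP (adjusted p = 0.0203), so this marker moved in the same direction as most of the 35 genes. The 13 markers of T, NK and B cells were below 1 FPKM in every library, with sums of 2.85 to 3.21, 1.89 to 2.09 and 1.48 to 2.12.

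Other lists moved as well. Of 9 hepatocyte markers, 5 rose and 1 (*Ttr*) fell after APAP, and 1 was higher with COS than after APAP. They summed to 49479 to 50420 FPKM in control, 59696 to 61635 after APAP and 47592 to 49317 with COS. Of 9 markers of sinusoidal endothelial cells, 4 rose after APAP, and 6 were lower and 1 higher in COS+APAP than in APAP, with sums of 28.9 to 35.8 FPKM in control, 42.5 to 46.5 after APAP and 22.8 to 25.5 with COS. Of 8 stellate cell markers 4 were tested. *Dcn* and *Acta2* rose after APAP, *Col3a1* had −0.87 ± 0.30 and did not pass (adjusted p = 0.0631), and 3 were lower with COS than after APAP. The untested ones were mixed after APAP. *Lrat* went from 1.66 and 1.85 FPKM to 0.51 and 0.57 and *Col1a1* from 1.89 and 1.23 to 1.02 and 0.63. *Reln* went from 0.71 and 0.78 to 1.34 and 1.26, and *Des* overlapped. Of 9 markers of monocytes and neutrophils, 4 were tested and 4 were below 1 FPKM in every library, *Ccr2* and *Ly6c2* among them. *Cd14* and *S100a9* rose after APAP and were lower with COS than after APAP. *S100a9* had 18.1 and 5.60 FPKM in APAP, which stand far apart. *Lyz2* differed by −0.12 ± 0.15 after APAP (adjusted p = 0.536), and *S100a8* did not pass. The list summed to 28.5 to 31.4 FPKM in control, 45.5 to 74.9 after APAP and 21.5 to 22.4 with COS. *Cd14*, the coreceptor for endotoxin, rose by 4.63 ± 0.49 after APAP (adjusted p = 0.00218) and was lower by 3.39 ± 0.46 in COS+APAP (adjusted p = 0.0108). It had 1.21 and 0.85 FPKM in control, 31.8 and 14.5 after APAP and 2.55 and 1.81 with COS. Its calls were not followed through the alternative fits. Of 10 acute phase genes, 5 rose after APAP and 9 were higher in COS+APAP than in APAP. Pericentral hepatocyte markers, those of the zone that APAP injures, fell in 10 of 10 tested after APAP and rose in 9 of 10 with COS, with sums of 2781 to 3586, 959 to 1395 and 2872 to 3461 FPKM. The part of these cell types, zones and acute phase genes in the levels of the 35 genes was not tested.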

How the data were processed

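The members and gene lists were chosen with earlier results of these data known. Per the file headers, the authors deposited estimated counts and FPKM for each gene in each library. Per the submitters' processing notes, HISAT2 2.0 was the aligner and StringTie 1.3.0 the assembler. No genome build is named in the sources used here. Of 55141 gene identifiers shared with GENCODE M21, 94.2% had identical coordinates, and so had 32 of the 35 members (not *Isg15*, *Ifih1* and *Irf1*). Another 6 per-sample columns could be tied to no library and were not used. For a symbol entered more than once (134 repeats) the most expressed entry was taken.

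The estimated counts were whole numbers, and about 4 of them stood for a fragment. A gene was tested if its FPKM averaged at least 1 (10051 genes), with edgeR 4.0.16 in R 4.3.3 (TMM, two-sided quasi-likelihood F test, 1 model of the 3 groups over 6 libraries, 3 residual degrees of freedom, Benjamini-Hochberg adjustment over all genes tested, called at 0.05). The SE was obtained as the absolute log2 fold change over the root of F. The fitting code was tested on simulated data. The labels do not state separate animals for the libraries, so p-values measure only the spread between these libraries. Estimated counts and totals are given without an error, and reads shared by similar or overlapping genes may add uncertainty to them.

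Each library's values are given for the 2 members of each role with the highest mean FPKM, for the member of each role with the largest change in APAP against control and in COS+APAP against APAP, for members called against the median direction, and for others where a statement rests on them. Named from each pathway list are the 2 tested genes with the largest change in the same comparisons, and all genes of the receptor list, apart from 1 gene that is not reported here.

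The correlation of deviations from the group means over 10051 genes was low between same-numbered libraries. It was 0.017 for both control and APAP pairs, 0.051 for control and COS+APAP replicate 3, and −0.041 for APAP and COS+APAP replicate 3. With 2 libraries a group the deviations mirror each other, so the 0.017 of both pairs is a single value. This check cannot exclude a pairing. Alternatives were DESeq2 1.42.0, RLE and upper-quartile scaling, other filters, limma 3.58.1 on log2(FPKM + 1) and log2(FPKM + 0.1), a fit of the 2 groups alone, counts divided by 4, counts without mitochondrial transcripts, a replicate block, and leaving out each library, where the lone library of a group is assumed to vary like the others. For genes outside the 35 these were added after seeing the data. Gene start windows are from RefSeq tables of GRCm38.p6.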

Additional observations from a re-analysis of the deposited data

How the results depend on the processing

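The fall of these genes after APAP kept its direction under all alternatives, with 17 to 23 members lower and 0 higher when single libraries were left out (median −1.57 to −0.93, the latter without APAP replicate 3). With a replicate block 19 were lower, with *Cmpk2* and *Ifih1* lost and a median of −1.43, and genes called over the whole table were 3370 in place of 4561. The check of deviations showed no pairing by number but cannot exclude one. The COS+APAP group shares only number 3 with the others, so no paired analysis was possible because fewer than 2 numbers are shared. Between COS+APAP and APAP, the members called higher (4) were 7 with DESeq2, and 2 without a filter, with limma on log2(FPKM + 1) and with the 2 groups alone. Those called lower (3) were 6 with DESeq2, 5 at a mean FPKM of at least 0.3, and 2 with limma, with upper-quartile scaling and with the 2 groups alone. Without a filter 3 of the 35 were lower, and *Cmpk2* and *Lgals3bp* were not among them. Leaving out single libraries gave a median of −0.41 to 0.05, reversed without APAP replicate 1. Fewer calls were made in those fits, among the members and among all tested genes. Against control, the median in COS+APAP was −1.41 to −1.17 with single libraries left out, again with fewer calls among the members and among all tested genes. Small differences between COS+APAP and APAP changed sign: *Irf1* was −0.01 with DESeq2 and with RLE scaling and 0.00 at the lower filter. With single libraries left out the ranges were −0.28 to 0.37 for *Irf1*, −0.85 to 0.05 for *Xaf1*, −0.44 to 0.08 for *Helz2*, −0.64 to 0.03 for *Ifih1*, −0.41 to 0.09 for *Irf9*, −0.44 to 0.23 for *Tap1* and −0.02 to 0.62 for *Dhx58*. For APAP against control, *Ifnar1* and *Ifnar2* were −0.08 and −0.09 under upper-quartile scaling, −0.07 and −0.10 with limma on log2(FPKM + 1), and −0.09 and −0.11 on log2(FPKM + 0.1), with −0.06 to 0.10 for *Ifnar2* over the left-out libraries. Upper-quartile scaling moved the median of all genes to −0.121 for APAP against control and 0.117 for COS+APAP against APAP. For APAP against control that median was −0.103 with limma on log2(FPKM + 1) and −0.134 on log2(FPKM + 0.1). The cause of the sign changes was not tested. Depth limits the lowest members, such as *Ifit2* with 8 estimated counts in APAP replicate 3.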

Other observations

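Chemokines and class II antigen presentation genes, which interferon gamma can induce though not it alone, were measured beside the type I targets. *Cxcl10*, a chemokine that attracts T cells, had 1.47 and 3.05 FPKM in control, 21.9 and 12.2 after APAP and 0.25 and 1.99 with COS. The APAP libraries were above all others. It rose by 3.06 ± 0.96 after APAP (adjusted p = 0.0467) and was lower by 3.90 ± 1.00 in COS+APAP than in APAP (adjusted p = 0.0443), and these calls were lost in 6 of 17 and 7 of 16 alternative fits, among them the fits without either APAP library. *Cxcl11*, a ligand of the same receptor, went the other way after APAP, from 1.71 and 4.27 FPKM to 0.20 and 0.25, and fell by 3.58 ± 0.51 (adjusted p = 0.00444), a call kept in all 17. Of the 8 tested genes of this list of 11, 2 rose and 1 fell after APAP, where 23.3% and 22.1% of all tested genes did.

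The class II genes showed their difference between COS+APAP and APAP. *Cd74*, the invariant chain, had 19.5 and 27.9 FPKM in control, 28.3 and 25.6 after APAP and 7.48 and 7.62 with COS, with control and APAP overlapping and COS+APAP below both. It was lower in COS+APAP than in APAP by 1.82 ± 0.20 (adjusted p = 0.00729), which held in all 16 alternatives, and lower than control by 1.49 ± 0.19 (adjusted p = 0.0088), which was lost without COS+APAP replicate 3. *H2-Ab1*, a class II chain, had 9.11 and 6.23, then 9.94 and 7.25, then 2.29 and 2.01 FPKM, and was lower than APAP by 1.98 ± 0.27 (adjusted p = 0.0108), a call lost without either COS+APAP replicate. In all 5 of the 8 tested genes fell in COS+APAP against APAP, where 11.1% of all tested genes did. Fewer of them passed when single libraries were left out, and fewer of all tested genes passed then too. The 6 markers of dendritic cells other than *Clec9a* were below 1 FPKM in every library, and the part of such cells in these values was not tested.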
